A study of Homo sapiens with 10 samples.

Results

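PC-3 is a human prostate cancer cell line that grows without androgen and is commonly used as a model of hormone-insensitive disease. The comparison described here pooled all arrays of PC-3 cells that had received a drug and set them against all arrays of cells that had not, so that it asks which transcripts differ whichever of the drugs was given. The members were chosen by their sample labels alone. They were 6 of the 10 arrays of the series, namely 2 labelled luteolin at 60 µM, 2 labelled gefitinib at 60 µM and 2 labelled luteolin plus gefitinib, each drug at 60 µM, all harvested after 24 h. The other 4 arrays served as controls: 2 of cells taken before any reagent was added (0 h) and 2 of cells kept for 24 h with DMSO, the solvent of both drugs. All 10 arrays were of the same cell line in medium with serum, and the labels call the arrays of a pair biological replicates. For the 6 drug-treated arrays the deposited scanner files are named after another treatment than the labels give. The files of the pair labelled luteolin are named for gefitinib, those of the pair labelled gefitinib for the combination, and those of the pair labelled luteolin plus gefitinib for luteolin. Whole pairs are exchanged, so both classes and the pooled differences stay as they are. Values of single pairs are given by label, so that the luteolin pair below means the pair with that label. The paper reports the rise of LEFTY1 as largest with luteolin, next with both drugs and smallest with gefitinib. By file name the pairs had that order here, at 6.53, 3.53 and 2.63, and by label they did not. The drug named with a single pair may therefore not be the one its cells received.

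Gefitinib is a kinase inhibitor made against the epidermal growth factor receptor, and luteolin is a plant flavonoid that inhibits several kinases. The study used both against cyclin G-associated kinase, GAK, which helps to strip clathrin from coated vesicles. Cells that stop dividing lose transcripts of DNA replication, which are driven in late G1 by E2F factors, and transcripts of mitosis, which are held down in resting cells by a repressor complex at the cell cycle genes homology region of their promoters. Cells under stress make the transcription factor ATF4, which turns on amino acid transporters and biosynthesis, or raise the chaperones of the endoplasmic reticulum (ER) through elements in their promoters. Immediate early genes and chemokines answer within minutes to hours to kinase signals and are often short-lived as RNA.

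Total RNA was labelled with a single dye and hybridized to Agilent Whole Human Genome arrays. Each value below is the log2 of a probe's processed signal after subtraction of its array's own 75th percentile, so 0 is that percentile. Among the 10 arrays, 63.4% to 70.4% of probes were well above background, and 0 spots were saturated. Duplicate arrays correlated at r = 0.982 to 0.995 across genes, which are not independent replicates, arrays of different drug-treated pairs at 0.918 to 0.958, and drug-treated with control arrays at 0.927 to 0.969. The 75th percentile was 540 to 1173 on the drug-treated arrays and 1177 to 1402 on the controls, so every drug-treated array was dimmer before scaling, and the part of this in the results was not tested. The epithelial genes KRT8, KRT18, EPCAM and CDH1 were well above background on all 10 arrays, as were VIM and CDH2. The prostate gene KLK3 was also well above background on all 10 arrays, at a mean of 3.56 on the controls. Of the genes of other cell types, PTPRC was at background on every array and CDH5 was above it on 1, while CD3E, CD14 and PECAM1 were above it on all 10.

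The median difference between the classes over 19718 genes tested was 0.11 on the log2 scale, that is, slightly above 0, and list medians below are to be read against it. It was 0.23 with normexp background correction, 0.31 with no filter on dim probes and 0.00 after quantile normalization. In the fit that counts the spread between treatments as error, with treatment as a random block in limma, 0 genes were raised and 0 were lowered (0% and 0% of genes), a call asking for a log2 difference of 1 or more and an adjusted p below 0.05. The smallest adjusted p was 0.42, shared by 164 genes. At an unadjusted p under 0.05 there were 1882 genes (9.54%), 1200 of them higher and 682 lower with drugs. Arrays of a treatment resembled each other closely, with a consensus correlation of 0.776 within treatment. A fit to 1 mean per treatment, 3 drug-treated against 2 control means, also called 0 genes in either direction. Leaving out a drug-treated pair changed this outcome for some pairs, with 176 genes raised and 63 lowered without the pair labelled luteolin, 122 and 76 without that labelled gefitinib and 0 in either direction without that labelled luteolin plus gefitinib.

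A second fit took the 5 treatments as given and set the same pooled difference against the spread between duplicates only. It answers a narrower question, about these treatments and not about drugs in general. It called 1236 genes higher (6.27%) and 1107 lower (5.61%) in the drug-treated arrays, so that 52.8% of calls were higher, against 40.6% after quantile normalization and 62.8% with no filter on dim probes. With class alone and no term for treatment, 635 genes were higher and 406 lower. The 1-sample test that the methods name called 1144 higher and 824 lower without adjustment, and 584 and 373 after Benjamini-Hochberg adjustment. In what follows, and after the values were seen, a gene is called higher or lower where it passed the fit with 5 treatments, the adjusted p beside it is from that fit, and the SE is that of the random-block fit, in which none of these genes was called.

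A plainer description needs no fit. On 2036 genes (10.3%) all 6 drug-treated arrays lay above all 4 controls, and on 1133 (5.75%) all 6 lay below. Of the genes called, 686 (3.48% of genes tested) were higher with no overlap and 575 (2.92%) were lower with no overlap, while 1082 called genes had arrays that overlapped. The space between the classes was usually narrow. Its median was 0.19 for the genes above and -0.22 for those below, and it reached at least 1 on the log2 scale for 71 genes above and 42 below. Every drug-treated pair was at least 2-fold from the control mean for 260 called genes that lay above without overlap and for 174 that lay below. The pairs differed in size all the same: 1796 of the called genes (76.7%) differed between the 3 drug-treated pairs by an F test at an adjusted p under 0.05, as did 73.8% of all genes tested. The median SD of a gene was 0.553 over the 6 drug-treated arrays and 0.161 over the 4 controls, and within pairs it ran from 0.089 for DMSO to 0.258 for luteolin plus gefitinib.

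**Figure D1:**
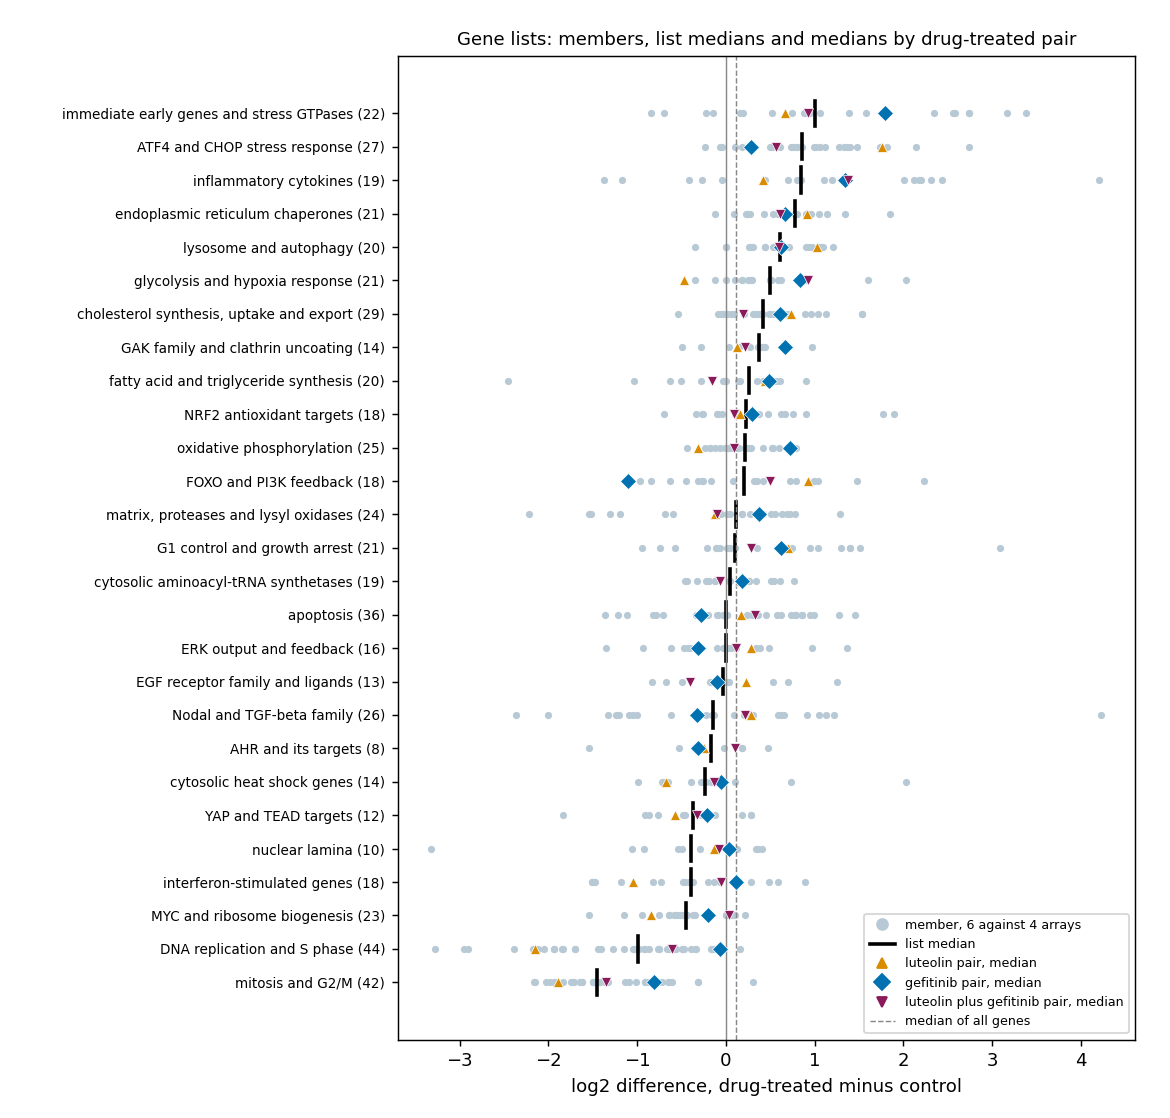
Log2 difference between drug-treated and control arrays for the members of 27 gene lists, with the number tested in brackets. Pale points are members, black bars the list medians over all arrays, and colored symbols the list medians of each labelled pair against the mean of the controls. Mitosis genes had the lowest list median at -1.45 and early genes the highest at 1.00, and the dashed line is the median of all genes at 0.11.

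Genes of mitosis and the G2/M transition were lower in the drug-treated arrays, and this was the list with the largest share of calls. Of 42 members tested, 31 were lower, against 5.61% of all genes, and 0 higher. For 25 members, against 5.75% of all genes, all 6 drug-treated arrays lay below all 4 controls. Counts of every list are to be read against 6.27% of all genes higher, 5.61% lower, and 10.3% above and 5.75% below without overlap. The list median was -1.45, and 33 members (78.6%, against 14.6% of all genes tested) were below the control mean in every drug-treated pair. The pair medians were -1.89 for luteolin, -0.81 for gefitinib and -1.35 for luteolin plus gefitinib. In the random-block fit 27 members had an unadjusted p under 0.05 and 0 were called. Between the controls the list moved the other way, at a median of 0.38 higher with DMSO than at 0 h. Within slides the medians of drug-treated minus control arrays were -1.48, -1.89 and -0.41, the last from a slide with 1 array of each class. In cells measured in bulk, fewer cells in a phase and less RNA per cell in that phase cannot be told apart.

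PLK1, the kinase that drives entry into mitosis and spindle assembly, had a log2 signal of 3.13 and 3.14 on the 0 h arrays, of 3.70 and 3.56 on the DMSO arrays, and of 0.93 to 2.77 with a median of 1.37 on the drug-treated arrays. All drug-treated arrays were below all controls, with the gefitinib pair closest to them. The difference was -1.74 ± 0.49 (SE), or 3.34-fold lower (adjusted p = 0.000235). AURKA, the kinase that matures the spindle poles, stood at 1.83 and 1.84 at 0 h, at 2.66 and 2.47 with DMSO, and at -0.50 to 0.86 with a median of 0.14 with drugs. Here too the classes did not overlap, and the gefitinib pair was the lowest. It was 3.94-fold lower, a difference of -1.98 ± 0.51 (SE, adjusted p = 0.00031).

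KIF11 encodes the motor that pushes the spindle poles apart and KIF20A a motor of cytokinesis. KIF11 was 0.62 and 0.50 at 0 h, 0.95 and 0.84 with DMSO, and -1.84 to -0.61 with a median of -1.11 with drugs. The drop was much the same in every pair, with pair differences of -2.01, -1.83 and -1.95, and no array overlapped. The pooled difference was -1.93 ± 0.64 (SE, adjusted p = 0.00103). KIF20A was -0.13 and -0.11 at 0 h, 1.01 and 0.71 with DMSO, and -3.04 to -0.68 with a median of -1.75 with drugs, a difference of -2.15 ± 0.72 (SE, adjusted p = 0.000634). Its classes did not overlap either.

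MKI67, the gene of the Ki-67 antigen used to mark cycling cells, was -1.42 and -1.71 at 0 h, -1.25 and -1.63 with DMSO, and -5.50 to -2.86 with a median of -3.32 with drugs. The lowest value came from the luteolin pair, 5 of the 6 drug-treated arrays were well above background, and no drug-treated array reached the controls. The difference was -2.17 ± 0.75 (SE, adjusted p = 0.000754), a 4.49-fold lower mean. TOP2A, the topoisomerase that untangles sister chromosomes, was 4.09-fold lower at -2.03 ± 0.62 (SE), with drug-treated arrays at -1.85 to 0.09 and controls at 0.87 to 1.499. CCNB1 and CDK1 together make the kinase of mitosis. CCNB1 was lower by a difference of -1.42 ± 0.50 (SE), with pair differences of -1.41, -1.33 and -1.53, and CDK1 was 2.83-fold lower, most in the luteolin pair, at -2.77, and least in the gefitinib pair, at -0.73. The members not called included FOXM1, a transcription factor of mitotic genes, at a difference of 0.31, and BIRC5 (survivin) at -0.31.

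Promoters were searched for short motifs of cell cycle and stress genes in the 250 bases before the start of transcription, on either strand, in the RefSeq table of build GRCh38.p14. It held 27305 promoters and matched 54.7% of the genes tested. In all, 16 motifs were searched. The letters TTTGAA, the core of the cell cycle genes homology region, occurred in 20 of 36 promoters of the mitosis list (55.6%) against 13.6% of all promoters in the table, and CCAAT, the box bound by NF-Y, in 72.2% against 33%. Both occurred in 16 of the 36 (44.4%) against 4.85% of all. These shares belong to the list and do not depend on the arrays. Among called lower genes without overlap, 61 of 296 promoters (20.6%) held TTTGAA, against 8.7% of all genes tested. For CCAAT it was 41.6% against 35.4%. The 296 include members of the mitosis list, such as PLK1 and KIF11, and the shares without them were not taken. Of the 23 members of this list with a promoter in the table and no overlap between the classes, 15 held TTTGAA. The promoters of PLK1 (chr16:23678639-23678888, plus strand) and KIF11 (chr10:92592880-92593129, plus strand) are shown because they hold both. Capitals mark TTTGAA and CCAAT, or their reverse complements, and a match is a description of letters, not of a bound site.
PLK1: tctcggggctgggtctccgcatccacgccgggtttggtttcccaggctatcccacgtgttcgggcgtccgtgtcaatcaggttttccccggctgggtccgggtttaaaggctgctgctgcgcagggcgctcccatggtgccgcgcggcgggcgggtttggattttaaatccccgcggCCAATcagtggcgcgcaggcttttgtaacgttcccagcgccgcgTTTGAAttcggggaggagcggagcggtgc
KIF11: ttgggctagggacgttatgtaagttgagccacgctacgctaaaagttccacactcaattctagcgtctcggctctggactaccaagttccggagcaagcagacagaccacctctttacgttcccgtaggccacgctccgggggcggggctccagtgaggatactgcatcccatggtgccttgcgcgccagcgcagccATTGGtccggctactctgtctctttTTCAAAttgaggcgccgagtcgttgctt

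Genes of DNA replication and S phase were less even. Of 44 members 22 were lower, against 5.61% of all genes, and 0 higher. Below all controls without overlap lay 12, against 5.75% of all genes, and the list median was -0.99. The pair medians were -2.15 for luteolin, -0.07 for gefitinib and -0.61 for luteolin plus gefitinib, and 12 members were lower without the luteolin pair and 34 without the gefitinib pair. The largest difference was that of E2F2, a transcription factor of the G1/S transition. It read 1.14 and 0.99 at 0 h, 0.44 and 0.21 with DMSO, and -5.43 to -0.40 with a median of -2.16 with drugs. All 6 drug-treated arrays were lower, though only 5 were well above background, and the luteolin pair was by far the lowest, with pair differences of -5.74, -2.85 and -1.24. The pooled difference was -3.28 ± 0.96 (SE, adjusted p = 0.000145), or 9.70-fold lower.

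CCNA2, cyclin A2, acts in S phase and before mitosis. It was -0.10 and -0.08 at 0 h, 0.20 and 0.19 with DMSO, and -3.06 to -1.37 with a median of -2.47 with drugs. The classes were 1.28 apart at their nearest arrays, and every pair was low. The difference was -2.39 ± 0.46 (SE), 5.23-fold lower (adjusted p = 0.000172). PCNA, the sliding clamp of the replication fork, was 3.97 and 3.69 at 0 h, 3.28 and 3.18 with DMSO, and 1.73 to 2.81 with a median of 2.01 with drugs. No array overlapped, although the DMSO arrays were already lower than those at 0 h. Its difference was -1.41 ± 0.39 (SE, adjusted p = 0.000332).

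Other members depended on the pair. RRM2, the regulated subunit of ribonucleotide reductase, was 2.20 to 2.54 on the controls and ran from -2.61 to 2.40 with drugs. Its gefitinib pair sat at the level of the controls, at a pair difference of 0.05, and the luteolin pair at -4.78. GINS2, a subunit of the replicative helicase, showed the same order, at -4.08, -0.22 and -1.24 for luteolin, gefitinib and luteolin plus gefitinib. EXO1, a DNA exonuclease, was below all controls in every pair at -2.18 ± 0.69 (SE, adjusted p = 0.000189), and MCM10, a replication initiation factor, at -2.12 ± 0.88 (SE, adjusted p = 0.000145). TK1, thymidine kinase, was not called at 0.15. The E2F-like letters TTTCCCGC occurred in 8 of 38 promoters of the list (21.1%) against 1.42% of all promoters, and TTTGGCGC in 6 of 38 (15.8%) against 0.553%. These shares belong to the list and do not depend on the arrays. Among called lower genes without overlap TTTCCCGC occurred in 7 of 296 promoters (2.36%), against 2.16% of all genes tested. For TTTGGCGC it was 4 of 296 (1.35%) against 0.872%. The promoter of PCNA (chr20:5126623-5126872, minus strand, GRCh38.p14, RefSeq) is printed as a member that was low in every pair, with the reverse complement of TTTCCCGC in capitals.
PCNA: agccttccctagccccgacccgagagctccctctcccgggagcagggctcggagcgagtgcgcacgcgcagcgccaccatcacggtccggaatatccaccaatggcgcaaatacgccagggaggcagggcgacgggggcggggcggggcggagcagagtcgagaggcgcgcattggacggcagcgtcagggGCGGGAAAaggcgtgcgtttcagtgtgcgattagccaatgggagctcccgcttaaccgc

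**Figure D2:**
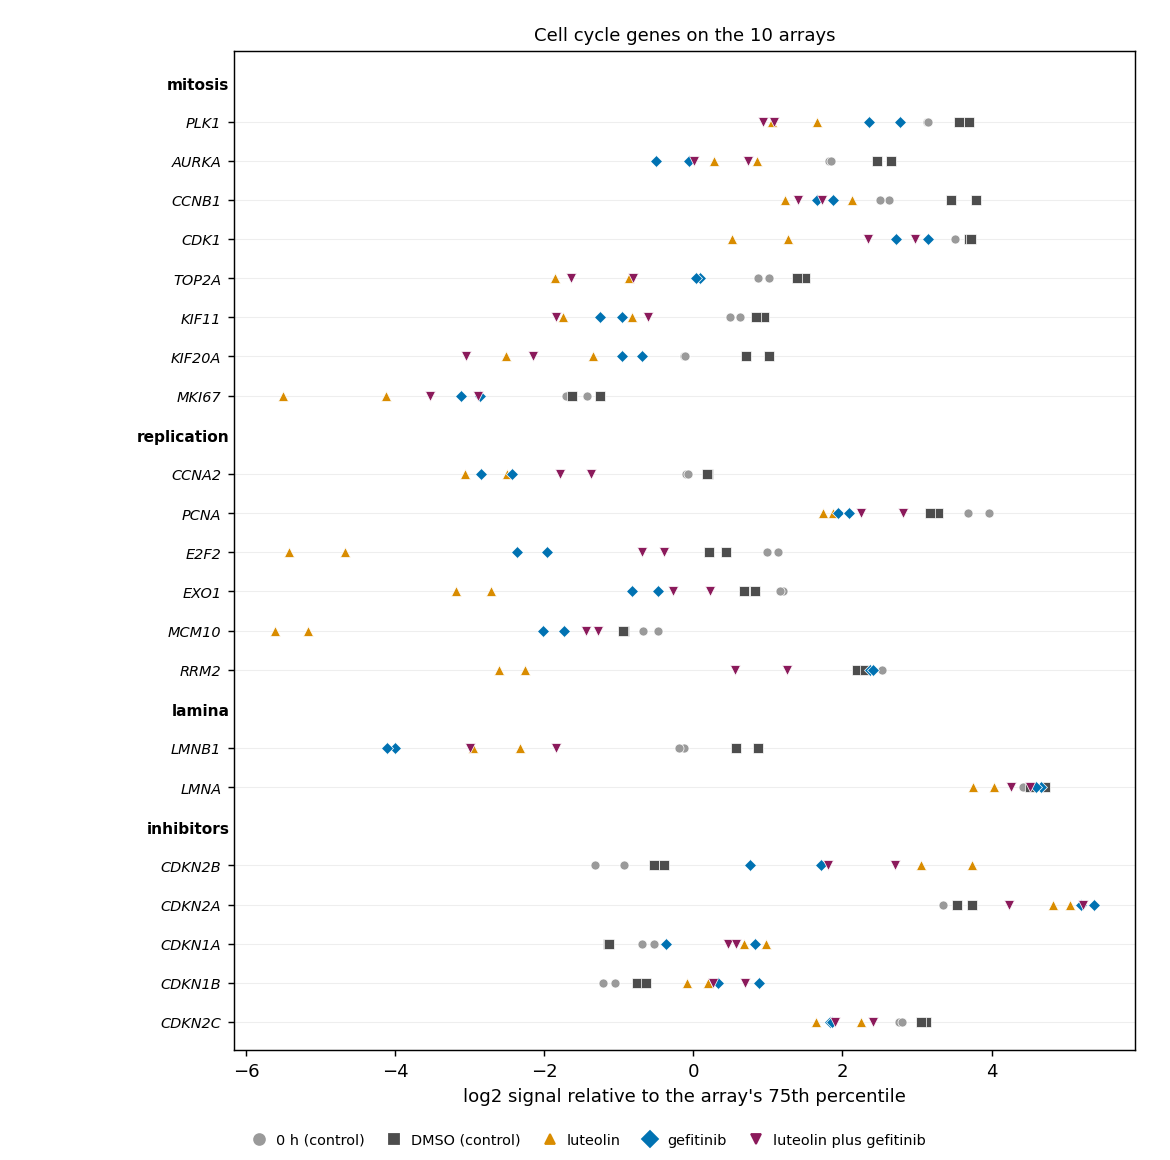
Log2 signal, less the 75th percentile of each array, for cell cycle genes on each of the 10 arrays. Gray symbols are control arrays and colored symbols the drug-treated arrays by their labels. Mitosis genes, CCNA2 and LMNB1 lay below all controls on all 6 drug-treated arrays, RRM2 did not, and CDKN2B lay above them from 0.76 to 3.74 against -1.32 to -0.39.

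Several inhibitors of cyclin-dependent kinases were higher, and CDKN2C was not. Of the 21 members of the G1 list 6 were higher and 0 lower, against 6.27% and 5.61% of all genes. Without overlap 6 lay above and 1 below, against 10.3% and 5.75%. The list median was 0.11, no more than that of all genes. CDKN2B, which encodes the CDK4 and CDK6 inhibitor p15, was -1.32 and -0.93 at 0 h, -0.52 and -0.39 with DMSO, and 0.76 to 3.74 with a median of 2.25 with drugs. All drug-treated arrays were above all controls, the luteolin pair the most. The difference was 3.09 ± 0.75 (SE), or 8.497-fold higher (adjusted p = 0.000225). CDKN1A, which encodes p21, was -0.52 and -0.68 at 0 h, -1.15 and -1.13 with DMSO, and -0.37 to 0.98 with a median of 0.63 with drugs. Its nearest arrays were only 0.16 apart. The difference was 1.40 ± 0.54 (SE, adjusted p = 0.00159).

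CDKN1B, which encodes p27, differed by 1.29 ± 0.40 (SE, adjusted p = 0.000609), with controls at -1.20 to -0.63 and drug-treated arrays at -0.08 to 0.88. CDKN2A, the locus of p16 and p14ARF, differed by 1.39 ± 0.49 (SE, adjusted p = 0.00119), with controls at 3.35 to 3.74 and drug-treated arrays at 4.24 to 5.37. In both, every drug-treated array was above every control. CDKN1C was higher at 1.51 and CCNG2, cyclin G2, at 1.03, both with arrays that overlapped. CDKN2C, which encodes the related inhibitor p18, lay on the other side, below all controls at -0.95 ± 0.39 (SE), short of the 2-fold threshold. CCND1, a D-type cyclin, was not called at -0.11, nor were its kinases CDK4 at 0.04 and CDK6 at -0.07.

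The nuclear lamina, the protein mesh beneath the nuclear envelope, held the lower gene with the largest difference in the pool of well-measured genes described below. LMNB1, lamin B1, was -0.12 and -0.19 at 0 h, 0.87 and 0.57 with DMSO, and -4.10 to -1.84 with a median of -2.98 with drugs. The nearest arrays of the classes were 1.65 apart, and the gefitinib pair was the lowest. The difference was -3.32 ± 0.67 (SE), 9.98-fold lower (adjusted p = 0.000189). The partner lamins did not follow, since LMNA was not called at -0.29 ± 0.34 (SE, adjusted p = 0.0726) and LMNB2 was not called at -0.50. Of the 10 lamina genes 2 were lower, LMNB1 and LEMD3, an inner nuclear membrane protein, at -1.06, the latter with overlap and pair differences of 0.07, -3.52 and 0.26. The count was 1 with normexp and without replicate 2 of gefitinib or of luteolin plus gefitinib.

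Histone genes of the replication-dependent clusters are described by class, a grouping made after their values were seen. The paper primed reverse transcription with oligo-dT, so the values are of RNA with a poly(A) tail. They may not follow the total RNA of these genes, which was not measured. All 16 H2B genes tested were above 0, with a median difference of 0.82 (0.47 to 1.03). For 13 of them, against 10.3% of all genes, the drug-treated arrays lay above all controls. Only H2BC5 reached the 2-fold threshold, and after quantile normalization 3 of the 16 did not overlap. Of 13 H4 genes, 7 were lower, against 5.61% of all genes, while the other 6 were above 0. Of the 7 lower, 6 lay below all controls, against 5.75% of all genes. H4C3 was 6.47 and 6.63 at 0 h, 6.59 and 6.54 with DMSO, and 2.49 to 5.17 with a median of 4.17 with drugs. H4C13 ran from 4.60 to 4.72 on the controls and from 0.38 to 3.06 with drugs, a difference of -2.75 ± 0.57 (SE, adjusted p = 0.000145). No array of either gene overlapped. H4 genes encode the same protein and have similar coding sequences, as do H2B genes, so a probe may read several copies and the assignment to single genes is uncertain. The H4 median was -1.04, against -0.12 with normexp background correction. H1-3, a linker histone, had the most even difference of the lower genes in the pool described below, at -1.28, -1.29 and -1.30 in the pairs.

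**Figure D3:**
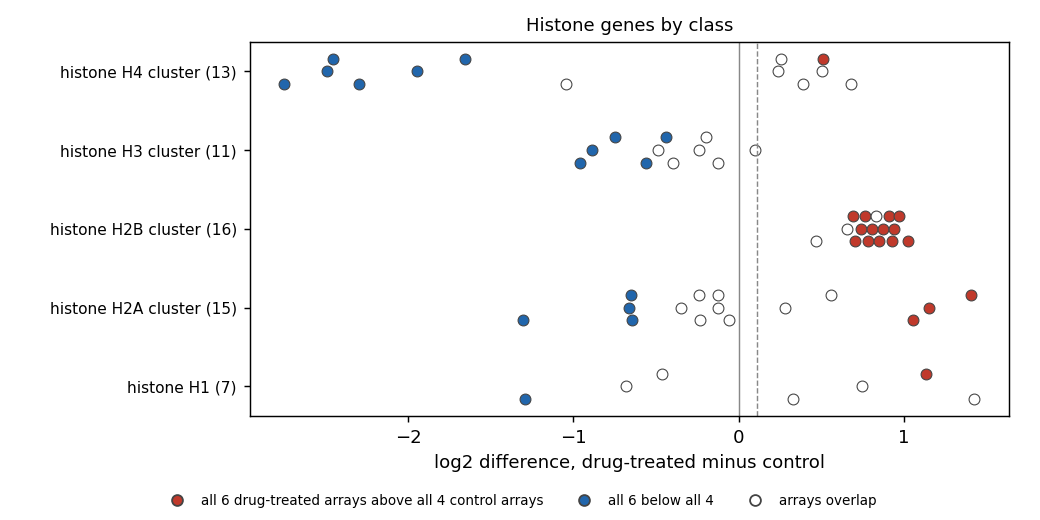
Log2 difference between the means of drug-treated and control arrays for each histone gene tested, by class. Filled points mark genes whose 6 drug-treated arrays lay above (red) or below (blue) all 4 controls, and the dashed line is the median of all genes. The H2B genes lie close together between 0.47 and 1.03, whereas the H4 genes span -2.75 to 0.68.

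Of 27 genes of the ATF4 stress response tested, 12 were higher, against 6.27% of all genes, and 0 lower. Above all controls without overlap lay 11, against 10.3% of all genes, and the list median was 0.86. The luteolin pair carried the most, with pair medians of 1.76, 0.28 and 0.56, and without it 7 members were higher. ATF4 itself, the transcription factor of the response, was 4.67 and 4.87 at 0 h, 4.79 and 4.72 with DMSO, and 5.02 to 6.84 with a median of 6.17 with drugs. Every drug-treated array was above every control, with the nearest, from the gefitinib pair, only 0.15 away. The difference was 1.33 ± 0.54 (SE, adjusted p = 0.00142).

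ATF3, a stress transcription factor of the same family, was -0.90 and -0.57 at 0 h, -0.39 and -0.29 with DMSO, and 0.95 to 3.34 with a median of 2.21 with drugs. The classes were 1.24 apart. It differed by 2.74 ± 0.70 (SE), 6.70-fold higher (adjusted p = 0.000353). DDIT4, an inhibitor of the growth kinase mTORC1, was -1.37 and -1.05 at 0 h, -0.93 and -0.56 with DMSO, and 0.44 to 1.96 with a median of 1.11 with drugs, also without overlap and alike in all pairs at 2.47, 1.68 and 2.29. Its difference was 2.15 ± 0.54 (SE, adjusted p = 0.000333).

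PPP1R15A, which ends the translational block of the response, differed by 1.47 ± 0.58 (SE, adjusted p = 0.00136), SLC3A2, the heavy chain of amino acid transporters, by 1.36 ± 0.48 (SE, adjusted p = 0.00103), and PHGDH, the first enzyme of serine synthesis, by 1.02 ± 0.37 (SE, adjusted p = 0.00048), each above all controls on all 6 arrays. TRIB3, an ATF4 target, was called but not shared. Its pair differences were 3.18 for luteolin, 0.23 for gefitinib and 0.41 for luteolin plus gefitinib, and its arrays overlapped. NUPR1 was also highest in the luteolin pair, at 3.21 against 1.17 and 0.82, yet without overlap. The tRNA synthetases of the cytosol, several of which are ATF4 targets, had 0 of 19 members called in either direction in this limma fit, and 1 with an unadjusted p under 0.05 in the random-block fit.

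Of 21 chaperones, folding enzymes and stress sensors of the ER, 4 were higher and 0 lower, and 10 lay above all controls without overlap, against 10.3% of all genes. In every pair 13 members (61.9%, against 27.4% of all genes tested) were above the control mean. The list median was 0.78, with pair medians of 0.91, 0.67 and 0.61. The count of members called was 2 after quantile normalization and 2 without the luteolin pair. HSP90B1, the HSP90 of the ER, was 5.88 and 5.95 at 0 h, 5.61 and 5.59 with DMSO, and 6.40 to 6.91 with a median of 6.63 with drugs. The arrays did not overlap, and the 3 pairs were alike at 0.80, 1.06 and 0.85. The pooled difference of 0.90 ± 0.31 (SE) was under the 2-fold threshold. CANX, the lectin chaperone calnexin, was 2.30 and 2.16 at 0 h, 2.16 and 2.08 with DMSO, and 2.90 to 3.59 with a median of 3.23 with drugs, again without overlap. It differed by 1.05 ± 0.32 (SE, adjusted p = 0.000584).

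ERN1, which encodes the stress sensor IRE1, was -2.79 and -2.31 at 0 h, -1.94 and -1.81 with DMSO, and -1.01 to 0.08 with a median of -0.27 with drugs. All 6 drug-treated arrays were higher, by 1.85 ± 0.47 (SE, adjusted p = 0.000335). HERPUD1 and DNAJB9, both classical targets of the unfolded protein response, were called, but the arrays of the gefitinib pair disagreed. Its replicate 1 was above every control for both genes and its replicate 2 below. HERPUD1 differed by 2.43, -0.16 and 1.13 in the pairs and DNAJB9 by 2.62, -0.32 and 1.72. The ER stress element, the letters CCAAT and CCACG with a spacer of fixed length between them, occurred in 6 of 20 promoters of the list (30%) and in 0.0806% of all. That share belongs to the list and does not depend on the arrays. Among called higher genes without overlap 1 of 309 promoters (0.324%) held it, against 0.13% of all genes tested. The promoter of HSP90B1 (chr12:103930160-103930409, plus strand, GRCh38.p14, RefSeq) is shown with its matches in capitals, one in each orientation.
HSP90B1: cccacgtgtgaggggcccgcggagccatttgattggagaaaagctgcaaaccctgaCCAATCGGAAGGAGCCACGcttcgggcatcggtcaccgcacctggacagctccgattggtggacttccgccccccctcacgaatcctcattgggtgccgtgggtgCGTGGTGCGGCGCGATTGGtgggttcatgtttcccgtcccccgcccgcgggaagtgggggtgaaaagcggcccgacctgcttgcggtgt

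Of 14 cytosolic heat shock genes 1 was higher and 0 were lower, 5 lay below all controls and 2 above, and the list median was -0.23. After quantile normalization 3 were lower, 8 lay below all controls and 0 above, and the median was -0.64. The called member, HSPA6, an inducible HSP70, differed by 2.03 ± 0.67 (SE, adjusted p = 0.00031), with its nearest arrays touching. BAG3 at -0.99, HSPA8 at -0.72, DNAJA1 at -0.71 and DNAJB1 at -0.65 lay below all controls, each short of 2-fold.

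Of 22 immediate early genes tested, 10 were higher, against 6.27% of all genes, and 0 lower. In every pair 13 (59.1%, against 27.4% of all genes tested) were above the control mean. All drug-treated arrays of 9 lay above all controls, against 10.3% of all genes. The list median of 1.00 was the highest of the 27 lists, with the gefitinib pair highest at 1.79. KLF6, a zinc finger transcription factor, was 1.83 and 2.36 at 0 h, 2.60 and 2.45 with DMSO, and 3.82 to 6.55 with a median of 4.94 with drugs. The classes were 1.22 apart, and the gefitinib pair was highest. It differed by 2.74 ± 0.79 (SE), 6.69-fold higher (adjusted p = 0.000387). RASD1, a small GTPase induced by glucocorticoid, was -0.51 and -0.60 at 0 h, 0.26 and -0.58 with DMSO, and 0.91 to 3.26 with a median of 2.77 with drugs. It did not overlap either, though the luteolin plus gefitinib pair was nearest to the controls. Its difference was 2.74 ± 0.64 (SE, adjusted p = 0.000203).

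JUNB, a subunit of the AP-1 transcription factor, was 1.93 and 1.71 at 0 h, 1.77 and 1.54 with DMSO, and 2.68 to 3.82 with a median of 3.42 with drugs, without overlap and with pair differences of 1.69, 1.91 and 1.15. It differed by 1.58 ± 0.37 (SE, adjusted p = 0.000225). NR4A2, an orphan nuclear receptor, was -5.03 and -5.20 at 0 h, -4.22 and -4.82 with DMSO, and -3.10 to -0.45 with a median of -1.59 with drugs. Its classes were 1.13 apart, at a difference of 3.16 ± 0.83 (SE), 8.96-fold higher (adjusted p = 0.000336). RHOB, a stress-induced small GTPase, was not well above background on any control and was so on all 6 drug-treated arrays, so that only a lower limit holds: it was at least 3.85-fold higher. FOS, the partner of JUN proteins in AP-1, was called higher, but its arrays overlapped, and only 2 of 4 controls and 5 of 6 drug-treated arrays were well above background, so that no size is given.

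Among inflammatory cytokines 9 of 19 were higher and 2 lower, against 6.27% and 5.61% of all genes. Without overlap 7 lay above and 1 below all controls, against 10.3% and 5.75%, and the list median was 0.85. The chemokines CXCL2 and CXCL3, which attract neutrophils, were among the higher. CXCL2 was -0.25 and 0.09 at 0 h, 0.60 and -0.37 with DMSO, and 1.47 to 3.17 with a median of 2.19 with drugs. CXCL3 was -1.29 and -1.57 at 0 h, -1.31 and -1.84 with DMSO, and -0.35 to 1.60 with a median of 0.74. Neither overlapped, and the differences were 2.20 ± 0.66 (SE, adjusted p = 0.000607) and 2.17 ± 0.57 (SE, adjusted p = 0.000323). CCL20, which attracts dendritic and memory T cells, was well above background on 0 of 4 controls and on 4 of 6 drug-treated arrays, and was at least 7.40-fold higher. LIF, a cytokine of the interleukin 6 family, was higher by 1.20 ± 0.38 (SE, adjusted p = 0.000665), and PTGS2, the inducible cyclooxygenase, by 2.43 ± 0.78 (SE, adjusted p = 0.000615), both without overlap. IL1B, interleukin 1 beta, went down where these went up. Its controls read 0.33 and 0.04 at 0 h and 0.25 and -0.03 with DMSO, and the drug-treated arrays -2.004 to -0.40 with a median of -1.06, a difference of -1.37 ± 0.61 (SE, adjusted p = 0.00276). CCL2 was the other lower member, with overlap, and 3 of 4 controls and 1 of 6 drug-treated arrays well above background. Without replicate 1 of 0 h, replicate 1 of DMSO or replicate 2 of gefitinib, the count of lower members was 1.

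**Figure D4:**
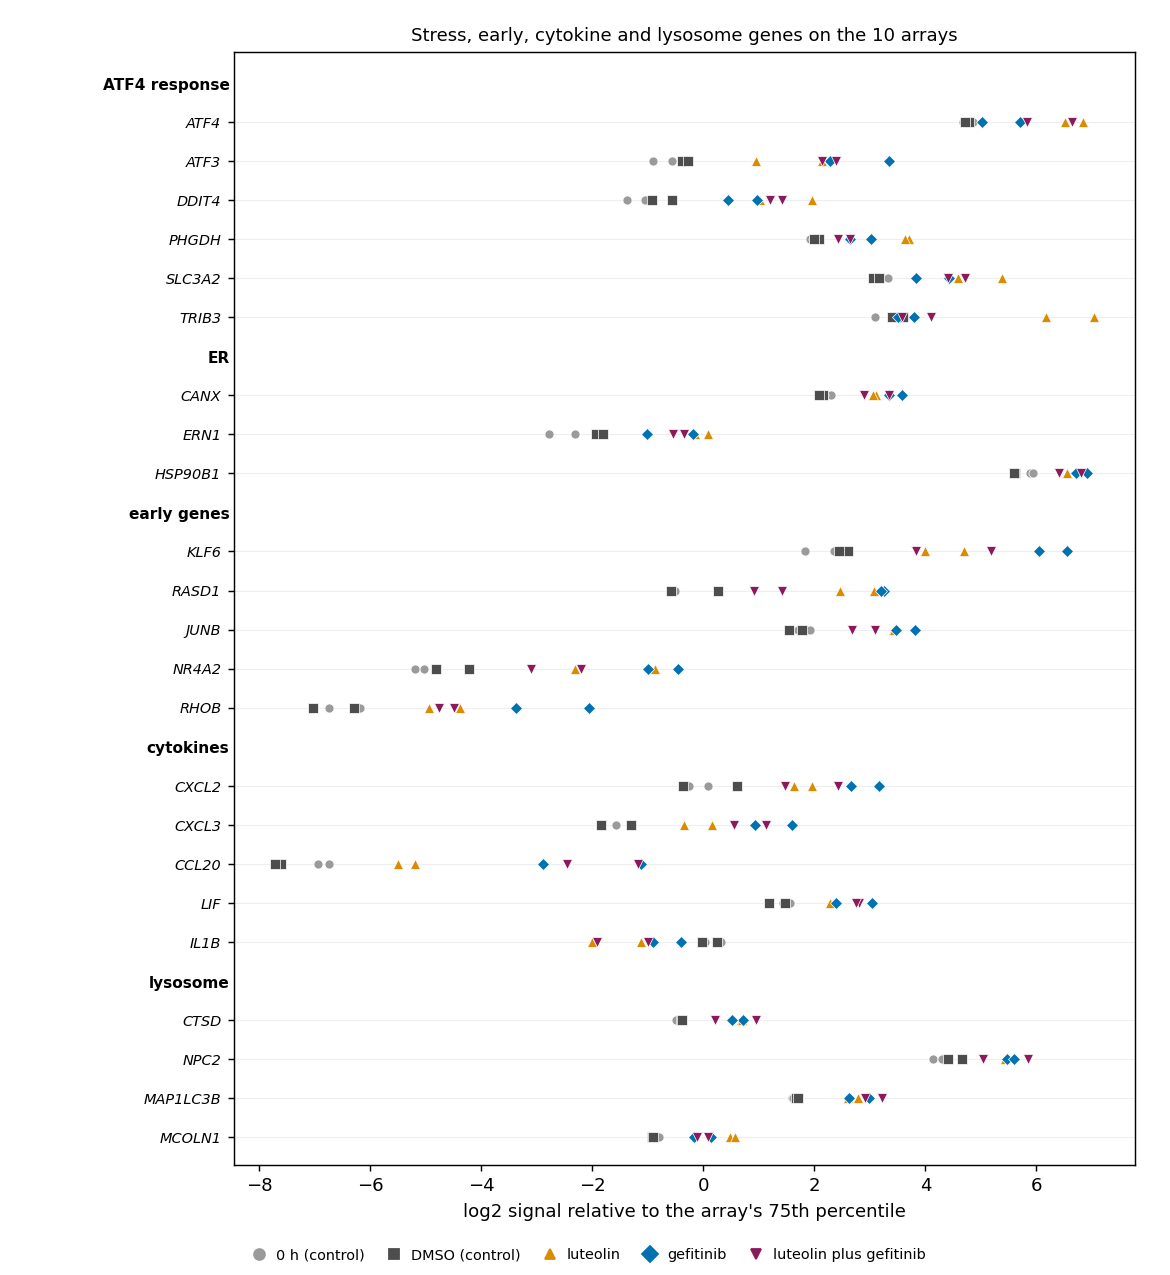
Log2 signal, less the 75th percentile of each array, for stress, early, cytokine and lysosome genes on each of the 10 arrays, with control arrays in gray and drug-treated arrays in color by label. Except for TRIB3, whose arrays overlap, and IL1B, which lies below, the drug-treated arrays lie above all controls.

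Lysosome and autophagy genes showed small differences. The pair medians were 1.03 for luteolin, 0.62 for gefitinib and 0.60 for luteolin plus gefitinib. In every pair 12 members (60%, against 27.4% of all genes tested) were above the control mean. Of 20 members tested 5 were higher, against 6.27% of all genes, and 0 lower. Above all controls lay 8, against 10.3% of all genes, and the list median was 0.60. The count called was 3 with quantile normalization and 3 with normexp background correction, and 3 without replicate 2 of luteolin plus gefitinib. CTSD, the lysosomal protease cathepsin D, was -0.45 and -0.50 at 0 h, -0.40 and -0.39 with DMSO, and 0.22 to 0.95 with a median of 0.69 with drugs. NPC2, which carries cholesterol inside the lysosome, was 4.13 and 4.30 at 0 h, 4.41 and 4.66 with DMSO, and 5.03 to 5.86 with a median of 5.45. In both genes no array overlapped and the pairs hardly differed, at 1.12, 1.05 and 1.02 for CTSD and at 1.05, 1.15 and 1.07 for NPC2. Both are among the genes named below for being the most even. The differences were 1.07 ± 0.38 and 1.09 ± 0.41 (SE, adjusted p = 0.00113 and 0.0015).

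MAP1LC3B, the LC3 protein of the autophagosome membrane, was 1.60 and 1.61 at 0 h, 1.67 and 1.71 with DMSO, and 2.61 to 3.22 with a median of 2.84 with drugs, 0.89 from the nearest control. It differed by 1.20 ± 0.32 (SE, adjusted p = 0.000348). SQSTM1, the autophagy receptor p62, differed by 1.08 ± 0.35 (SE, adjusted p = 0.000497), and MCOLN1, the calcium channel of the lysosome, by 1.04 ± 0.31 (SE, adjusted p = 0.000393), also without overlap. TFEB, the transcription factor of lysosome genes, was at 0.00 and not called.

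Members of the Nodal and TGF-beta family went both ways, with 4 of 26 higher and 7 lower, against 6.27% and 5.61% of all genes. The list median of -0.15 became 0.18 with normexp background correction. With normexp 4 were lower, and after quantile normalization 2 were higher. LEFTY1, a secreted antagonist of Nodal that the study followed, read -5.98 and -6.46 at 0 h, -6.57 and -6.77 with DMSO, and -4.46 to 0.26 with a median of -2.62 with drugs. It was well above background on 0 of 4 controls and on all 6 drug-treated arrays, and was at least 13.0-fold higher with drugs, most in the pair labelled luteolin plus gefitinib, whose files are named for luteolin. LEFTY2 and NODAL were at background on all 10 arrays. FST, the activin antagonist follistatin, was higher by 1.05 ± 0.46 (SE, adjusted p = 0.00225), above all controls.

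INHBB, the beta B subunit of activin and inhibin, was on the other side, at 5.35 and 5.47 at 0 h, 5.23 and 5.65 with DMSO, and 2.09 to 4.63 with a median of 3.61 with drugs. The classes did not overlap. It differed by -2.01 ± 0.55 (SE, adjusted p = 0.000145). GREM1, an antagonist of bone morphogenetic proteins, was above background on all 4 controls and on 0 drug-treated arrays, and was at least 1.95-fold lower. SMAD6, an inhibitory SMAD, at -1.20 ± 0.50 (SE), and TGFB3 at -1.05 ± 0.43 (SE) were lower without overlap, and ID2 at -1.09 and ID3 at -1.33, both targets of BMP signals, were lower with overlap.

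The counts of the lists that follow are small and are to be read against 6.27% of all genes higher and 5.61% lower. Of 29 genes of cholesterol synthesis and transport 4 were higher and 0 lower, with a median of 0.42, and 2 were higher with only 0 h as control. MSMO1, a sterol demethylase, differed by 1.54 ± 0.58 (SE, adjusted p = 0.00151) and SREBF2, the transcription factor of sterol synthesis, by 1.03 ± 0.37 (SE, adjusted p = 0.00111), both above all controls. MYLIP, a ubiquitin ligase of the LDL receptor, was also higher without overlap, at 1.53 ± 0.61 (SE). Of 20 genes of fatty acid and triglyceride synthesis 2 were lower, namely DGAT2, which makes triglyceride, at -2.46 ± 1.12 (SE, adjusted p = 0.00274) and the elongase ELOVL6 at -1.04 ± 0.47 (SE, adjusted p = 0.00246), both below all controls. Normexp, or leaving out replicate 2 of gefitinib or of luteolin plus gefitinib, gave a count of 1.

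Of 36 apoptosis genes 2 were higher and 3 lower, with a median of 0.00, and these shares lie near those of all genes (6.27% and 5.61%). Without the luteolin pair 7 were higher and 5 lower, and without the gefitinib pair 4 and 0. PMAIP1, the BH3-only protein NOXA, was 0.30 and 0.41 at 0 h, 0.31 and 0.42 with DMSO, and 1.17 to 2.35 with a median of 1.96 with drugs, above all controls in every pair. It differed by 1.45 ± 0.51 (SE, adjusted p = 0.00101). HRK, also a BH3-only protein, was higher at 1.27 without overlap. The lower genes included FADD, the adaptor of death receptors, which differed by -0.35, -3.52 and -0.22 in the pairs labelled luteolin, gefitinib and luteolin plus gefitinib, and BAK1, a pore-forming protein of mitochondria, at -1.11. Both had arrays that overlapped.

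In the EGF receptor list 1 of 13 members was higher, ERRFI1, a feedback inhibitor of the receptor, at 1.25 ± 0.42 (SE, adjusted p = 0.00088) and above all controls. EGFR was not called at -0.07 ± 0.46 (SE, adjusted p = 0.686), and its pairs went both ways at 0.23, 0.52 and -0.97. Of 16 genes of ERK output 1 was higher, DUSP1 at 1.37, and 1 lower, DUSP6, whose pair differences were 0.10, -3.52 and -0.64 with overlap. With single arrays left out, up to 2 were higher and up to 2 lower. In the FOXO and PI3K list 3 of 18 were higher and 0 lower, against 8 higher without the gefitinib pair, and 1 higher and 4 lower without the luteolin pair. IRS2, the insulin receptor substrate, led them from controls of -1.85 to -1.56 to drug-treated arrays of -0.38 to 1.19, at 2.23 ± 0.57 (SE, adjusted p = 0.000384) without overlap.

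GAK, the kinase the study was about, read 0.45 and 0.45 at 0 h, 0.66 and 0.44 with DMSO, and 0.58 to 0.88 with a median of 0.85 with drugs. The classes overlapped through the DMSO array at 0.66. The difference of 0.27 ± 0.30 (SE, adjusted p = 0.0772) was not called. Of the 14 genes of the GAK family and clathrin uncoating 0 were called in either direction, with 0 at an unadjusted p under 0.05 in the random-block fit, a list median of 0.38 and a range from -0.50 to 0.97. With single arrays left out, up to 1 was called higher.

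Among glycolysis and hypoxia genes 2 of 21 were higher, NDRG1, a stress and hypoxia response gene, at 2.03 ± 0.55 (SE, adjusted p = 0.000335) without overlap and ADM at 1.60, and 5 were higher without the gefitinib pair. Among NRF2 targets 2 of 18 were higher, MAFG at 1.77 and HMOX1, heme oxygenase, at 1.89 ± 1.58 (SE, adjusted p = 0.0427) with overlap. That count was 1 without replicate 1 or 2 of 0 h, replicate 1 of DMSO, replicate 1 or 2 of luteolin, or replicate 2 of gefitinib or of luteolin plus gefitinib. Matrix genes had 1 higher and 5 lower of 24, against 0 and 2 with normexp and 0 and 3 where probes had to be well above background on every array. Interferon-stimulated genes had 0 higher and 4 lower of 18, of which IFI44 lay below all controls at -1.50 ± 0.64 (SE, adjusted p = 0.00171). Of 12 YAP targets CCN2, a matrix signaling protein, was lower at -1.84 ± 0.62 (SE, adjusted p = 0.000724), below all controls, and 3 were lower after quantile normalization, 4 without the gefitinib pair and up to 2 with single arrays left out. In the MYC and ribosome biogenesis list 2 of 23 were lower, with a median of -0.45 and 6 lower without the pair of both drugs, and of 8 AHR genes CYP1B1 was lower at -1.54. Oxidative phosphorylation had 0 of 25 called in either direction, with 0 at an unadjusted p under 0.05 in the random-block fit, and its median of 0.22 became -0.13 after quantile normalization.

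Outside the lists, genes were named by size from a pool of 306 higher and 301 lower genes that were called, did not overlap, were well above background on all 10 arrays and had a current symbol. The largest differences upward were those of LSMEM1, a single-pass membrane protein, and GCNA, a germ cell protein with a protease-like domain. LSMEM1 read -3.14 and -3.18 at 0 h, -3.71 and -3.35 with DMSO, and -1.09 to 1.72 with a median of 0.86 with drugs. GCNA read -1.16 and -0.72 at 0 h, -1.0002 and -0.81 with DMSO, and 1.04 to 4.49 with a median of 3.06. The classes were 2.05 and 1.77 apart. The differences were 3.92 ± 0.93 (SE, 15.2-fold higher, adjusted p = 0.000293) and 3.84 ± 0.87 (SE, 14.3-fold higher, adjusted p = 0.000222).

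They were followed by MIA, a small secreted protein of cartilage and melanoma, at 3.55, FAM209A at 3.49, GUCA1B, a guanylate cyclase activator of photoreceptors, at 3.38, the growth factor FGF18 at 3.37, the amine oxidase AOC3 at 3.31, NR4A2, CDKN2B, VWCE at 3.01, USP36, a nucleolar deubiquitinase, at 2.86 and CLEC3B (tetranectin) at 2.83. Several of them were uneven. FAM209A differed by 0.67 in the luteolin pair and by 4.33 and 5.47 in the others, and CLEC3B by 0.69 against 3.04 and 4.76. In USP36 the pairs were closer, at 1.79, 3.15 and 3.65.

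Downward, after LMNB1 and H4C13, came SLC16A14, a monocarboxylate transporter family member, at -2.57 ± 0.60 (SE, adjusted p = 0.000217), H4C3, DGAT2, H4C2, PHACTR3, an actin and phosphatase binding protein, at -2.44, CCNA2, INAVA at -2.38, MB21D2 at -2.35, HJURP, the chaperone of the centromeric histone, at -2.31 and the homeobox gene GBX2 at -2.27. INAVA, an innate immunity activator, read 0.17 and -0.20 at 0 h, -0.02 and -0.17 with DMSO, and -3.03 to -1.95 with a median of -2.38 with drugs. Its classes were 1.75 apart and its pairs alike at -2.06, -2.39 and -2.70, and the difference was -2.38 ± 0.44 (SE, adjusted p = 0.000196). PHACTR3 was alike too, at -2.56, -2.54 and -2.22.

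Some genes were at background in a whole class. Of 8 genes at background on all controls and above it on all 6 drug-treated arrays, those with the highest drug-treated mean were LEFTY1, SPDYA, an activator of CDK2, at least 8.68-fold higher, MGARP, a mitochondrial protein, at least 5.79-fold, SNX31, a sorting nexin, at least 4.76-fold, and MYRFL, at least 4.72-fold. SPDYA read -6.31 and -6.45 at 0 h, -7.46 and -7.59 with DMSO, and -4.20 to -1.53 with a median of -3.04 with drugs, 2.11 from the nearest control. Of 11 genes with the opposite pattern the top 5 by control mean were TGIF2, a corepressor of TGF-beta signaling, at least 2.05-fold lower, GREM1, ACSM3, a medium-chain acyl-CoA synthetase, at least 1.69-fold, H4C16, at least 1.66-fold, and TMEM200B, at least 1.47-fold.

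The most even differences across the pairs were small on the higher side, and reached -2.22 on the lower side. CDH1, E-cadherin, which joins epithelial cells, read -1.74 and -1.95 at 0 h, -2.13 and -2.38 with DMSO, and -1.21 to -0.63 with a median of -0.95 with drugs. It differed by 1.09, 1.13 and 1.15 in the pairs and by 1.12 ± 0.36 overall (SE, adjusted p = 0.000762), with no overlap. CTSD and NPC2 of the lysosome were among these genes, as were PLD3, also a lysosomal protein, at 1.02 and CD7, a leukocyte surface antigen, at 1.21. On the lower side were H1-3, GLMN, a protein of cullin ligases, at -1.28, FAM83D, a spindle protein, at -2.22, the DNA repair nuclease APEX2 at -1.11 and ARHGAP11A, a GTPase-activating protein, at -1.71. FAM83D read 1.28 and 1.08 at 0 h, 1.72 and 1.61 with DMSO, and -1.30 to -0.22 with a median of -0.81 with drugs, 1.30 below the nearest control and alike in the pairs at -2.20, -2.29 and -2.18.

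Every slide held arrays of both classes, so the difference could be taken within each, although 1 slide held only 0 h replicate 1 and gefitinib replicate 2. Of the called genes, 1156 of 1236 higher and 1044 of 1107 lower had the same direction on all 3 slides. Among those without overlap 330 higher and 268 lower were at least 2-fold on each. The genes were called on these same arrays, so such agreement is largely given by the choice and is no separate support. Genes without overlap are in part chosen for controls that lie close together, so the values that follow only describe them. Between DMSO and 0 h the median size of the difference was 0.19 for the called genes without overlap in either direction, and 4 higher and 2 lower genes moved by at least 1 with DMSO in the direction of the drugs.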

How the data were processed

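Total RNA of 10 PC-3 samples, labelled with Cy3, was hybridized to Agilent Whole Human Genome arrays. The intensities were deposited by the authors as Feature Extraction output (version 10.7.3.1 per the file headers, another version in the methods), with background and spatial trend subtracted and no normalization between arrays. Array number, and signal over background, limit the precision. How the authors normalized or filtered them further is not given in the sources used here.

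Values were analyzed with R 4.3.3, statmod 1.5.0 and limma 3.58.1. Control and outlier spots were left out, replicate spots were averaged as log2 values, and the 75th percentile of each array was subtracted. Kept were 28776 of 41000 probes (70.2%), well above background (at least 50% of spots) on both arrays of at least 1 treatment. A gene was represented by its kept probe with the highest mean, and 5659 of 19718 genes had more than 1. Accessions of 23958 probes matched RefSeq symbols. The first fit had class as a term and treatment as a random block (duplicateCorrelation, 8 residual and 4.08 prior degrees of freedom). The second had a mean for each of 5 treatments (5 residual and 3.36 prior degrees of freedom) and a contrast of the drug-treated with the control means. P-values were adjusted over all probes kept by the Benjamini-Hochberg method, and genes were called under 0.05 at a log2 difference of at least 1 in size. Genes at background on every array of a class were given as lower limits, with each array of that class at the higher of its signal and its lowest signal well above background. The fits were tested on simulated arrays.

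The samples, gene lists and tests were chosen with earlier results of these data known. Named genes are list members, genes the paper names for these cells, the 12 largest differences in each direction, the 5 brightest genes at background in a whole class and the 5 most even across pairs. The rule asked for genes called in the first fit, which called 0, so the second fit was used in its place after its values were seen, also for the lists. Alternatives were normexp (offset of 50), quantile normalization, both filters on dim probes, the other fits, replicate or slide as a block, either control alone, leaving out each pair or array, the median probe, the deposited value table, and no minimum fold. Those of the second fit were added after seeing the data. The deposited values of that table equalled the scanner signal for all 45015 spots of each array within a relative tolerance of 1e-04. Some of the genes that this rule names are not reported here.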

Additional observations from a re-analysis of the deposited data

Results flagged for a closer look

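Among 115 genes named in the text, the highest or lowest array of a class stood apart from the rest in 6 of 230 classes of arrays, all 6 of them controls. Chance alone is set to flag about 1 in 20. CDK1 was 3.51 on replicate 2 of 0 h, where the nearest control was 3.70. RASD1 was 0.26 on replicate 1 of DMSO, where the nearest was -0.51. MCOLN1 was -0.79 on replicate 2 of 0 h against -0.91. GAK was 0.66 on replicate 1 of DMSO against 0.45. VWCE was -2.53 on replicate 2 of DMSO against -2.20. CD7 was -4.31 on replicate 1 of 0 h against -4.92.

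The size of the difference varied with the treatment. By the F test over the 3 drug-treated pairs, 1796 genes called in the fit with 5 treatments differed between the pairs, against 73.8% of all genes tested. RRM2, FADD, DUSP6 and TRIB3 are named examples in which the pooled difference came mainly from 1 pair.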

How the results depend on the processing

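The random-block fit called 0 genes in either direction with every array left out in turn (lowest 0, highest 0), and also with quantile normalization, either filter on dim probes, a replicate block, slide as a block, either control alone, the median probe, the table of values and no minimum fold, and 0 of its calls differed between pairs. Normexp called 0 raised and 2 lowered genes, and both (2) differed between pairs. Counts with other fits and without a pair stand in the report: 1236 and 1107 with 5 treatments, 635 and 406 without a treatment block, 1144 and 824 or 584 and 373 with the methods' 1-sample test, 176 and 63 without the luteolin pair, 122 and 76 without the gefitinib pair.

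Genes with all drug-treated arrays above or below all controls numbered 2125 to 2638 and 1197 to 1455 with an array left out, and 4410 and 2208 without the luteolin pair, 3452 and 2447 without the gefitinib pair, and 3111 and 2115 without the pair of both drugs, where fewer arrays have to agree. With normexp 3335 lay above, with only DMSO as control 3116 above, and with only 0 h as control 1716 below.

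The fit with 5 treatments called 1150 to 1612 higher and 973 to 1287 lower with an array left out, of which 1563 to 2274 differed between pairs. Normexp gave 676, 402 and 897, probes above background on all 10 arrays 736 and 617, no filter 1882 higher, no luteolin pair 2059 higher, and no minimum fold 5959 and 4121. Replicate numbers were not used to pair the samples in either fit. Deviations of equal numbers correlated at -0.093 to 0.288, above 0.1 in 6 of 10 pairs of treatments. Replicate number went with slide, except that 0 h replicate 1 and gefitinib replicate 2 shared a slide of their own. With the replicate block 1238 were higher and 1110 lower.

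Of 1410 values of named genes, 3 reversed: ACSM3 at 0.0069 with normexp, and EGFR at 0.38 without the pair of both drugs and at 0.0297 without its replicate 2. With 1 array left out EGFR ran from -0.16 to 0.0297. The cause was not tested. Signal over background limits dim genes such as LEFTY1 and CCL20 to lower limits.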

Other observations

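Kinesins, the motors of the spindle and of vesicles, had 11 of 30 members lower, against 5.61% of all genes, and 0 higher. Below all controls lay 9, against 5.75% of all genes, and the median difference was -0.44. This family and those that follow were grouped by symbol after the values were seen. The TMED family, cargo receptors between the ER and the Golgi, had 2 of 11 members higher, against 6.27% of all genes. Above all controls lay 7, against 10.3%. The median was 0.66, with pair medians of 0.55, 0.77 and 0.65. The 2 called were TMED10P1 at 1.11 and TMED6, a dim gene with a control mean of -4.30. TMED6 was uneven, at 1.11, 1.30 and 3.15 in the pairs. The H3 histone genes lay mostly below 0, with 5 of 11 below all controls, against 5.75% of all genes, and a median of -0.44. The H2A genes lay on either side, with 3 of 15 above and 4 below all controls, against 10.3% and 5.75%. H1-2, a linker histone like H1-3, lay above all controls at 1.13.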
